A study of Mus musculus with 4 samples.

Results

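The genes described here are 7 MAP kinase phosphatases (Dusp1, Dusp2, Dusp4, Dusp5, Dusp6, Dusp10 and Dusp16) and 2 Sprouty genes (Spry1 and Spry2), 9 of the 22907 genes that could be named on the array. They were chosen by symbol as members of one feedback system, and their probes were identified by the RefSeq transcripts that the array files list for them. RNA came from RAW264.7, a mouse macrophage-like cell line, 2 days after transfection with siRNA and exposure to lipopolysaccharide (LPS), from the outer membrane of Gram-negative bacteria, or to the solvent DMSO. There were 4 groups of 1 array each, all of the same line: Ruvbl2 siRNA with LPS, Ruvbl2 siRNA with DMSO, control siRNA with LPS and control siRNA with DMSO. The Ruvbl2 siRNA was a pool of duplexes, and since the titles drop a letter from its name, its target was taken from the series title and description, where it is RUVBL2. The labels' protocols give electroporation or a lipid reagent as the route of transfection without saying which applied here, and no source used here states how much LPS was given or for how long. The study addresses the part that RUVBL2, an AAA+ ATPase of chromatin remodelling and chaperone complexes, plays in macrophage inflammatory gene expression.

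MAP kinases of the ERK, JNK and p38 families are switched on by phosphorylation of a threonine and a tyrosine in their activation loop, and MAP kinase phosphatases switch them off by removing both phosphates. Many of these phosphatases are themselves made in response to MAP kinase signalling, which closes a negative feedback loop, and they differ in where they act in the cell and in which MAP kinase they prefer. Sprouty proteins act further up, between receptor tyrosine kinases and Ras, and also restrain the ERK pathway. In macrophages, LPS switches on ERK, JNK and p38 through Toll-like receptor 4, and mice without Dusp1 are known for prolonged p38 activity and excess cytokine production after LPS.

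Values are processed signals of single spots, on a log2 scale relative to the 75th percentile of the array, and are called levels. A level of 0 is the 75th percentile, and levels are compared between arrays for 1 probe and never between probes. With 1 array per group there was no replicate, so a difference was called only by size, when it reached 2-fold (1 on the log2 scale) on arrays where the scanner software put the spot well above background. Where only the brighter array did so, the dim reading was replaced by that array's floor (the lowest level among its probes well above background) if it lay under it, and the result is given as "at least N-fold". The only error that could be measured was that between spots of 1 array, from probes printed 10 times. The technical SD, on a log2 difference, came to 0.06 for levels above 3, 0.12 from 1 to 3, 0.14 from -2 to 1, 0.27 from -4 to -2 and 0.61 from -6 to -4, and it leaves out any variation between cultures. In that order these rest on 524, 11, 7, 23 and 31 values of a repeated probe on an array, so those from -2 to 3 are rough. The scanner software's own error model was wider for bright spots, at 0.20 for a log2 difference of Dusp1, Dusp2, Dusp4, Dusp6, Dusp16 and Spry2.

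The 4 arrays were of like quality: 54.1% to 55.0% of RNA spots were well above background and no spot was saturated. All arrays were on 1 slide, the pair with Ruvbl2 siRNA in row 2 and the pair with control siRNA in row 1, so siRNA and slide row cannot be told apart. Ruvbl2 mRNA, the siRNA's target, had levels of 4.52 with Ruvbl2 siRNA and LPS and 4.67 with Ruvbl2 siRNA and DMSO, against 4.92 with control siRNA and LPS and 5.01 with control siRNA and DMSO. The siRNA difference was -0.40 in LPS and -0.34 in DMSO by this probe and by a dimmer probe it was -0.11 in LPS and -0.55 in DMSO, so the target was lower by less than 2-fold. Of 10 macrophage markers, 9 were well above background on every array and Mertk on none, with a summed level of 10.23 with Ruvbl2 siRNA and LPS and 10.06 with Ruvbl2 siRNA and DMSO, against 10.15 with control siRNA and LPS and 9.90 with control siRNA and DMSO. Of 4 T cell markers on the array, Cd3e and Cd3d passed on all 4 arrays and Cd3g and Cd8a on none, and the summed T cell marker level differed little between arrays (0.16 to 0.35 on the log2 scale). Of 4 markers each, B cell markers passed for 1 to 2 genes an array (Pax5 on all), fibroblast markers for 1 (Col1a2) and epithelial markers for 0 to 1. The part of these markers in the results below was not tested. The spike-in RNAs, added in known amount before labelling, stood higher on the Ruvbl2 siRNA DMSO array (median level 3.95 over 7 probes) than on the other 3 (3.57 to 3.64). Scaling on them moved the median of all measured genes to -0.26 for Ruvbl2 against control siRNA in DMSO and to 0.33 for LPS against DMSO with Ruvbl2 siRNA. Values with this scaling stand in brackets or beside the result below.

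Of the 9 genes, 6 stood well above background on every array (Dusp1, Dusp2, Dusp4, Dusp6, Dusp16 and Spry2), 2 on some (Dusp5 and Dusp10) and 1 on none (Spry1). Each had 1 probe except Spry2, which had 2. No member's spot carried an outlier mark.

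**Figure D1:**
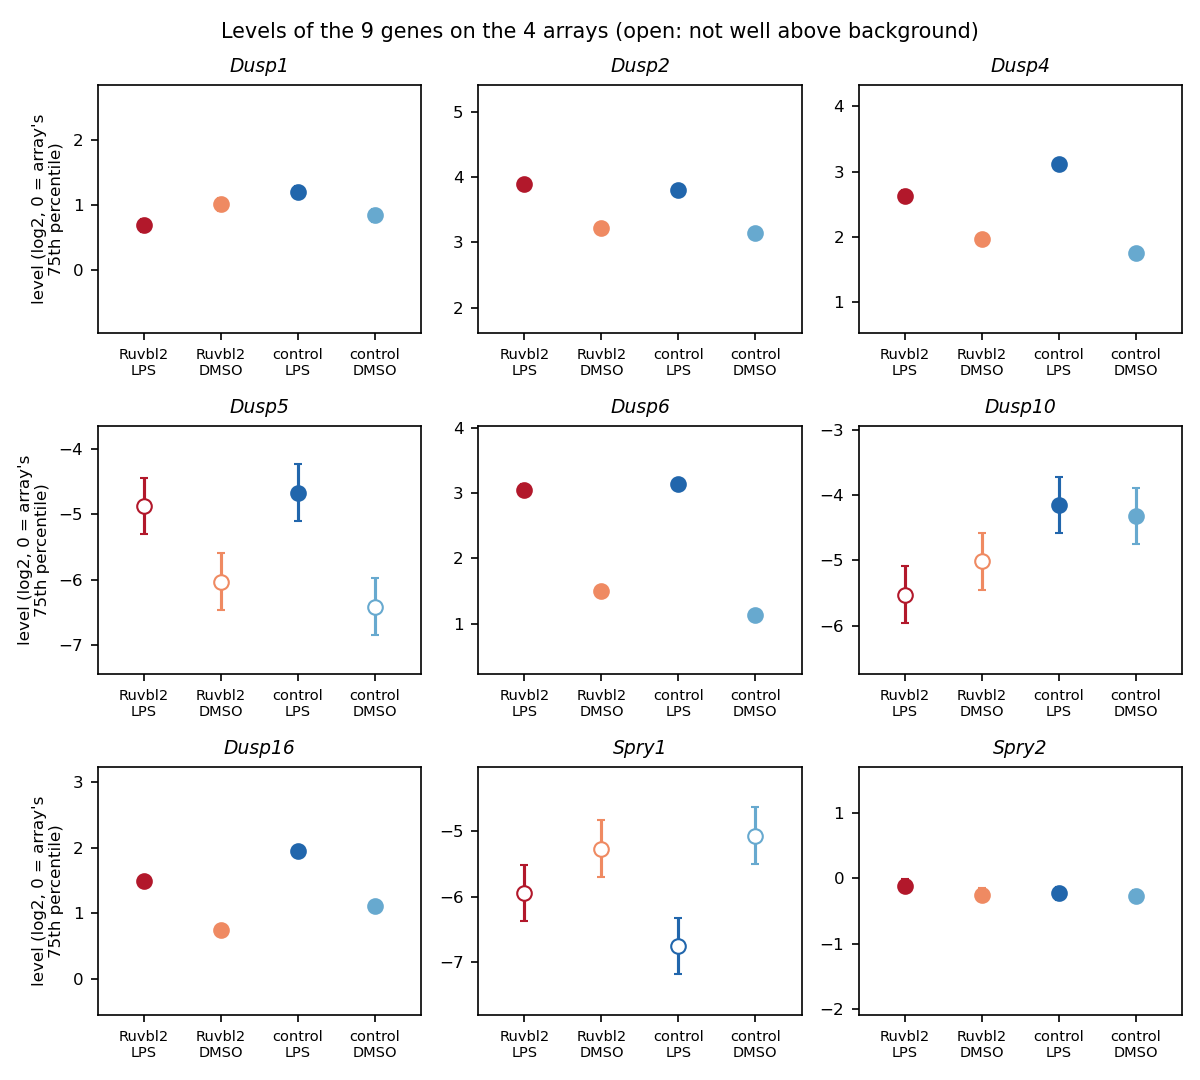
Level of each of the 9 genes on each array, on a log2 scale where 0 is the array's 75th percentile; every panel spans the same number of log2 units, bars are the technical SD of a single spot, hidden by the point where smaller, and open points were not well above background. Dusp6 and Dusp4 stand higher on both LPS arrays, Dusp1 and Spry2 vary by 0.51 and 0.16 across the 4 arrays, and Dusp5, Dusp10 and Spry1 lie near the background.

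To set the values beside the regulatory sequence, the 250 bases before each gene's start were taken from RefSeq (GRCm38.p6), where 8 of the 9 genes had an entry. They were searched on both strands for the cAMP response element TGACGTCA (CRE), its core TGACG, the AP-1 site TGANTCA, the ETS site CCGGAAG, the E-box CACGTG, the GC box GGGCGG and, by consensus, the kB site and the CArG box of serum response factor, while the TATA box TATAAA was searched on the given strand. A complete CRE contains this core on both strands. Dusp6 is shown because it was the member highest over DMSO with LPS, Dusp1 because its LPS difference had opposite signs with the 2 siRNAs, and Dusp5 because it was well above background on 1 array only. Capitals mark the CRE and its further core in Dusp1 and the CArG boxes in Dusp5. The Dusp6 stretch has no capitals, since none of the motifs searched was found there.
Dusp6 (chr10:99262981-99263230, plus strand): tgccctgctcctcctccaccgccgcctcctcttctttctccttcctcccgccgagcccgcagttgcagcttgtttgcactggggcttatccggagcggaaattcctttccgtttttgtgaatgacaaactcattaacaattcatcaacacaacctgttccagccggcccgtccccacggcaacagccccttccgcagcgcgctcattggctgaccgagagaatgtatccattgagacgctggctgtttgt
Dusp1 (chr17:26508473-26508722, minus strand): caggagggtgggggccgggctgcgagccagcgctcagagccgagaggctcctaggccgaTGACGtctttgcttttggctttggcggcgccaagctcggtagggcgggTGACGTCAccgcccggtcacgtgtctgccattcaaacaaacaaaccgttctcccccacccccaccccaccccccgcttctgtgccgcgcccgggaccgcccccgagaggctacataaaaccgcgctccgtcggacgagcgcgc
Dusp5 (chr19:53528895-53529144, plus strand): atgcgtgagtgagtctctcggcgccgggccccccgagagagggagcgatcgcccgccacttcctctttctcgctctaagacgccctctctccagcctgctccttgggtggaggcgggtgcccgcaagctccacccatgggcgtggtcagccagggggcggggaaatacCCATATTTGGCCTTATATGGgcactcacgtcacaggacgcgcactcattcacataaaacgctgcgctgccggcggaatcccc
The complete CRE began 143 bases before the start of Dusp1, with a further core 191 bases before it, and 1.55% of 32851 promoters of the same length held a complete CRE. The core was found in Dusp1, Dusp5 and Dusp16, and 17.8% of all promoters held one. The CArG boxes of Dusp5 began 82 and 72 bases before its start, and 1.47% of all promoters held such a box. GC boxes were found in 6 of the 8 members and in 32.7% of all promoters, and E-boxes in Dusp1 and Dusp2 and in 6.02% of all promoters. No member's stretch held the kB site, the AP-1 site, the ETS site or the TATA box, against 5.0%, 6.75%, 6.91% and 7.59% of all promoters, and a missing match says only that these letters are not in this window.

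LPS was set against DMSO first, to see which feedback genes stood higher in treated cells with each siRNA. Dusp6 was higher with both siRNAs and Dusp4 passed the size rule with control siRNA, while Dusp2 and Dusp16 were higher by less than 2-fold with both. With spike-in scaling, Dusp2 and Dusp16 passed 2-fold with Ruvbl2 siRNA but not with control siRNA. With Ruvbl2 siRNA 1 of the 6 members that could be compared was called higher, beside 4.14% of all 13513 genes compared (6.19% in either direction). With spike-in scaling it was 4 of 6 (Dusp2, Dusp4, Dusp6 and Dusp16), beside 1103 of 13513 genes called higher (9.04% called in either direction). With control siRNA 2 of 8 members were called higher, beside 5.72% of 13557 genes (7.91% in either direction). Since whole cultures were measured, a larger share of cells making an mRNA and more of it per cell cannot be told apart. No member was called lower, against 2.05% of all genes with Ruvbl2 siRNA and 2.2% with control siRNA. Of all genes called with Ruvbl2 siRNA, 66.9% were higher, and 90.3% with spike-in scaling. The median difference of the members measured on both arrays was 0.66 with Ruvbl2 siRNA (6 members, -0.32 to 1.55). With control siRNA it was also 0.66 (7 members, 0.04 to 2.01). The medians of all measured genes were -0.03 and 0.00. With spike-in scaling the member medians were 1.03 with Ruvbl2 siRNA and 0.73 with control siRNA, beside 0.33 and 0.07 for all measured genes.

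Dusp6, a cytoplasmic phosphatase selective for ERK, had levels of 3.05 with Ruvbl2 siRNA and LPS and 1.5 with Ruvbl2 siRNA and DMSO, against 3.13 with control siRNA and LPS and 1.13 with control siRNA and DMSO. Its 2 LPS arrays lay together, apart from both DMSO arrays, by far more than the technical SD of 0.12. LPS against DMSO gave 2.93-fold higher with Ruvbl2 siRNA (log2 difference 1.55) and 4.02-fold higher with control siRNA (2.01). Counting Dusp6 itself, 170 of 12653 measured genes were as high or higher with Ruvbl2 siRNA (1.34%) and 157 of 12720 with control siRNA (1.23%). Over 7 alternative ways of processing, its difference ran from 1.49 to 1.92 with Ruvbl2 siRNA and from 1.84 to 2.08 with control siRNA, past 2-fold each time. Among these ways, the deposited table and the mean of a gene's probes could not move it.

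Dusp5, the nuclear phosphatase selective for ERK, cleared the background on 1 array, control siRNA with LPS, at a level of -4.67. Its other levels were -4.87 with Ruvbl2 siRNA and LPS, -6.03 with Ruvbl2 siRNA and DMSO and -6.42 with control siRNA and DMSO. The readings on the LPS arrays differed from each other by less than the technical SD of 0.61 at this brightness. LPS against DMSO was at least 1.40-fold higher with control siRNA, short of the size rule, and could not be compared with Ruvbl2 siRNA. Of all genes, 150 showed this pattern of detection.

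Dusp4, a nuclear phosphatase that acts on ERK, JNK and p38, had levels of 2.63 with Ruvbl2 siRNA and LPS and 1.96 with Ruvbl2 siRNA and DMSO, against 3.11 with control siRNA and LPS and 1.75 with control siRNA and DMSO. The order was control LPS, Ruvbl2 LPS, Ruvbl2 DMSO and control DMSO, and each step was larger than the technical SD of 0.12, but with spike-in scaling the DMSO arrays changed places, at a difference of -0.09. The step between the DMSO arrays, 0.21, was close to the scanner software's error of 0.20. LPS against DMSO gave 1.59-fold higher with Ruvbl2 siRNA (0.67 on the log2 scale; after spike-in scaling 1.03) and 2.56-fold higher with control siRNA (1.36). Of all measured genes, 6.20% were as high or higher with Ruvbl2 siRNA and 2.82% with control siRNA.

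Dusp2, a nuclear phosphatase of leukocytes that acts on ERK and p38, had levels of 3.89 with Ruvbl2 siRNA and LPS and 3.23 with Ruvbl2 siRNA and DMSO, against 3.80 with control siRNA and LPS and 3.14 with control siRNA and DMSO. Both LPS arrays lay above both DMSO arrays. LPS minus DMSO was 0.66 with Ruvbl2 siRNA (1.02 with spike-in scaling) and 0.66 with control siRNA, or 1.58-fold each, against a technical SD of 0.06.

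Dusp1, a nuclear phosphatase that prefers p38 and JNK and whose mRNA is known as an early and short-lived transcript, had levels of 0.69 with Ruvbl2 siRNA and LPS and 1.01 with Ruvbl2 siRNA and DMSO, against 1.20 with control siRNA and LPS and 0.84 with control siRNA and DMSO. The LPS arrays thus held its lowest and its highest level, and the DMSO arrays lay between them. The LPS difference was -0.32 with Ruvbl2 siRNA and 0.36 with control siRNA, against a technical SD of 0.14, and neither reached the size rule. With spike-in scaling the value with Ruvbl2 siRNA was 0.04, while that with control siRNA was 0.43. Tnf and Il10, cytokine genes whose products are overmade without Dusp1, give a contrast on the same arrays: the Tnf difference was 2.00 with Ruvbl2 siRNA and 1.97 with control siRNA, whereas Il10 was at least 1.47-fold higher with Ruvbl2 siRNA and 5.86-fold higher with control siRNA. Il10 was faint, at levels of -5.67 to -2.07, with a technical SD of 0.61. Between the siRNAs in LPS, Il10 was 4.63-fold lower with Ruvbl2 siRNA, past the size rule, and Tnf differed by 0.02.

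Dusp16, a phosphatase that moves between nucleus and cytoplasm and prefers JNK and p38, had levels of 1.49 with Ruvbl2 siRNA and LPS and 0.74 with Ruvbl2 siRNA and DMSO, against 1.94 with control siRNA and LPS and 1.1 with control siRNA and DMSO. LPS stood above DMSO within each siRNA, and control siRNA above Ruvbl2 siRNA within each treatment. The LPS difference was 0.74 with Ruvbl2 siRNA (1.68-fold, or 1.11 on the log2 scale with spike-in scaling) and 0.84 with control siRNA (1.79-fold), against a technical SD of 0.12.

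Dusp10, which also acts on p38 and JNK, stood well above background on both control siRNA arrays and on neither Ruvbl2 siRNA array. Its levels were -5.52 with Ruvbl2 siRNA and LPS, -5.02 with Ruvbl2 siRNA and DMSO, -4.15 with control siRNA and LPS and -4.32 with control siRNA and DMSO. The LPS difference with control siRNA was 0.17, less than the technical SD of 0.61. Among all genes 80 had this pattern of detection, and 30 had the opposite one.

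Spry2, which restrains ERK signalling downstream of growth factor receptors, had these levels by its brighter probe: -0.11 with Ruvbl2 siRNA and LPS, -0.25 with Ruvbl2 siRNA and DMSO, -0.23 with control siRNA and LPS and -0.27 with control siRNA and DMSO. Its LPS differences of 0.14 with Ruvbl2 siRNA and 0.04 with control siRNA were near or under the technical SD of 0.14. With spike-in scaling they were 0.50 with Ruvbl2 siRNA and 0.11 with control siRNA, and with the mean of both probes 0.34 and -0.02. The dimmer probe read -2.0 with Ruvbl2 siRNA and LPS and -2.54 with Ruvbl2 siRNA and DMSO, against -2.06 with control siRNA and LPS and -1.99 with control siRNA and DMSO, so that the Ruvbl2 siRNA DMSO array alone was low. Its LPS differences were 0.54 with Ruvbl2 siRNA and -0.08 with control siRNA, against a technical SD of 0.27. Its relative Spry1 read between -6.75 and -5.07 on the 4 arrays, under the floor on 3 arrays and just over it on the control siRNA DMSO array, and could not be compared.

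**Figure D2:**
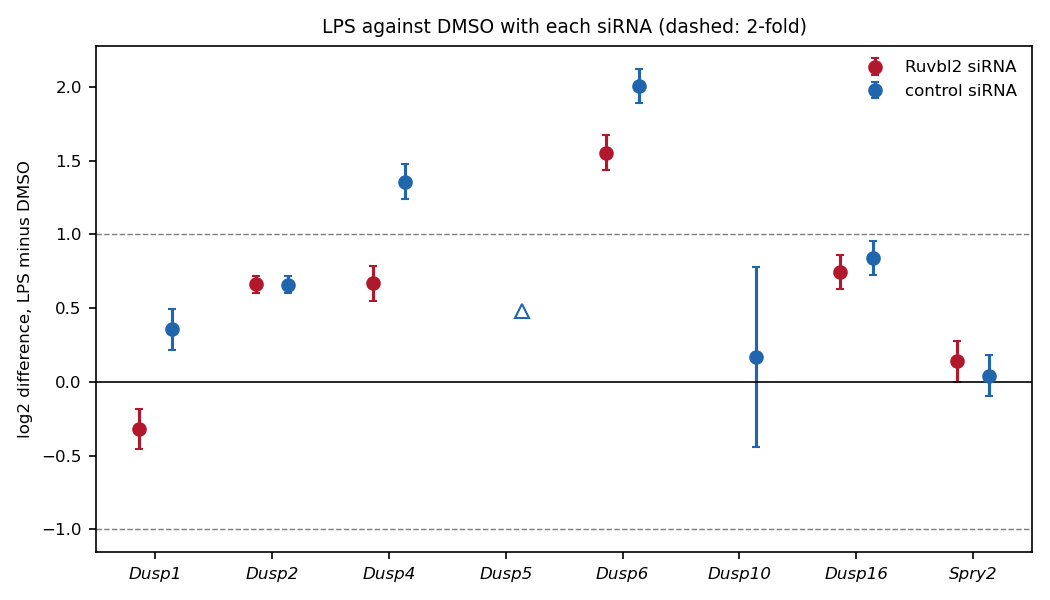
Log2 difference of LPS minus DMSO for each gene with Ruvbl2 siRNA and with control siRNA; bars are the technical SD between spots, open triangles are limits against the floor, and Spry1 is left out because it was not well above background. Dusp6 lies past 2-fold with both siRNAs and Dusp4 with control siRNA, and Dusp1 lies on opposite sides of 0 (at 0.04 and 0.43 with spike-in scaling).

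Ruvbl2 siRNA was then set against control siRNA within each treatment, which bears most directly on the study's question, and no member reached 2-fold in either. Under LPS the members with the largest measured differences were lower with Ruvbl2 siRNA: Dusp1, Dusp4 and Dusp16, each by less than 1.5-fold. Of 8 members compared in LPS 0 were called, beside 2.49% of 13468 genes (1.06% higher), and of 7 compared in DMSO 0 were called, beside 1.54% of 13465 genes (0.995% higher). These shares are low enough that a count of 0 among so few genes says little. Of all genes called in DMSO, 64.7% were higher (24.0% with spike-in scaling, 35.1% after normexp correction), and in LPS 42.6% (25.5% after normexp correction). The median over the 6 measured members was -0.27 in LPS and 0.13 in DMSO, beside 0.01 and 0.04 for all measured genes. With spike-in scaling the member median in DMSO was -0.18, beside -0.26 for all measured genes.

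In LPS the difference was -0.51 for Dusp1 (1.42-fold lower), -0.48 for Dusp4 (1.40-fold lower) and -0.46 for Dusp16 (1.37-fold lower), each more than 3 times the technical SD. That SD covers spots of 1 array only, and the scanner software's error for these differences was wider, at 0.20. Of 12780 measured genes, 5.97% were as low as Dusp1 or lower, 6.60% as low as Dusp4 and 7.36% as low as Dusp16, each counted with itself. Dusp6 (-0.09), Dusp2 (0.08) and Spry2 (0.12) differed by about the technical SD or less, Dusp2 by 0.08 against 0.06. Over the alternatives Dusp1 ran from -0.55 to -0.43, Dusp4 from -0.51 to -0.46 and Dusp16 from -0.50 to -0.37. Among the dim genes, Dusp10 was at least 1.58-fold lower and Dusp5 at least 1.1-fold lower, against a technical SD of 0.61 on the log2 scale.

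In DMSO, Dusp16 was again lower with Ruvbl2 siRNA, by a log2 difference of -0.36 (1.29-fold, or -0.66 with spike-in scaling), and 5.70% of 12730 measured genes were as low or lower. Dusp6 was on the other side, at 0.37 (1.29-fold higher, or 0.07 with spike-in scaling). For Dusp4 the value was 0.21, for Dusp1 0.17 and for Dusp2 0.08, and with spike-in scaling these turned to -0.09, -0.13 and -0.22. Spry2 differed by 0.02 by its brighter probe (-0.28 with spike-in scaling) and by -0.55 by its dimmer one. Dusp10 was at least 1.43-fold lower, a limit of -0.51 on the log2 scale, against a technical SD of 0.61. Dusp16 was thus below 0 in both treatments under every alternative tried, while Dusp1 and Dusp4 were so with spike-in scaling only.

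**Figure D3:**
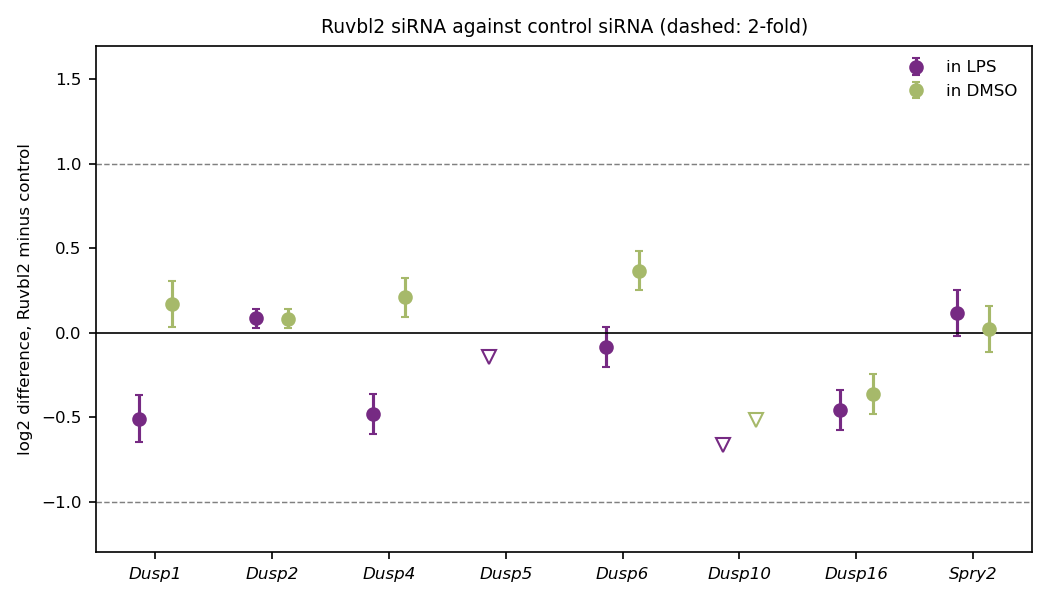
Log2 difference of Ruvbl2 siRNA minus control siRNA for each gene in LPS and in DMSO; bars are the technical SD between spots and open triangles are limits against the floor. No point reaches 2-fold; Dusp1 and Dusp4 lie below 0 in LPS and above it in DMSO (below it with spike-in scaling, at -0.13 and -0.09), and Dusp16 lies below 0 in both.

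The change of the LPS difference with Ruvbl2 siRNA, taken as the LPS difference with Ruvbl2 siRNA minus that with control siRNA, was computed for the 6 members measured on every array. It was -0.69 for Dusp4, -0.68 for Dusp1 and -0.45 for Dusp6, against technical SDs of 0.17, 0.19 and 0.17 over 4 spots. The scanner software's error was wider, at 0.29 for each of these genes. Dusp16 (-0.10), Dusp2 (0.00) and Spry2 (0.10) stayed within the technical SD or near it, although the dimmer Spry2 probe gave 0.61 against a technical SD of 0.38. With spike-in scaling Dusp4, Dusp1 and Dusp6 kept their sign at -0.40, -0.38 and -0.16, while Dusp16 turned to 0.20, Dusp2 moved to 0.29 and Spry2 to 0.39. No member reached a change of 1 on the log2 scale, beside 1.68% of 12467 genes (1.16% lower). Of those called, 31.1% were higher, and 79.1% with spike-in scaling. Of all these genes, 3.53% were as low as Dusp4 or lower, 3.73% as low as Dusp1 and 8.65% as low as Dusp6. The median of the 6 members was -0.27, beside -0.03 for all genes. With spike-in scaling these medians were 0.02 for the members and 0.26 for all genes.

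The rest of the MAP kinase pathway was described by lists. Few of the kinases passed the size rule with LPS, while 7 of 19 compared genes known to respond to ERK were called higher with each siRNA. They were the same 7 genes, beside 4.14% of all genes called higher with Ruvbl2 siRNA and 5.72% with control siRNA, and 0 were called lower. Over the alternatives that kept the 2-fold rule, 5 to 8 were called higher with Ruvbl2 siRNA. With control siRNA 6 to 8 were called higher and 0 to 1 lower. Below 0 lay 4 genes with Ruvbl2 siRNA and 5 with control siRNA, among them the early transcription factor genes Egr2 (-0.51 with Ruvbl2 siRNA and -0.95 with control siRNA), Egr3 (-0.55 and -0.89 likewise) and Fos (-0.25, or 0.11 with spike-in scaling, and -0.58). The median was 0.52 with Ruvbl2 siRNA (0.49 to 0.89 over the alternatives) and 0.46 with control siRNA (0.36 to 0.53). For all genes it was -0.03 and 0.00 (0.33 and 0.07 with spike-in scaling). Myc, a growth-promoting transcription factor, was 4.20-fold higher with Ruvbl2 siRNA and 6.28-fold higher with control siRNA. Phlda1, which is induced by mitogens, was 3.70-fold higher with Ruvbl2 siRNA and 7.88-fold higher with control siRNA. Ier3, an immediate early gene, was 5.06-fold higher with Ruvbl2 siRNA and 3.45-fold higher with control siRNA. Hbegf, a ligand of the epidermal growth factor receptor, was 3.68-fold higher with Ruvbl2 siRNA and 4.49-fold higher with control siRNA. The other 3 were the transcription factor genes Fosl1 and Etv4 and Plaur, the urokinase receptor. Under LPS, 1 gene of this list was called between the siRNAs: Epha2, a receptor tyrosine kinase, was 4.84-fold higher with Ruvbl2 siRNA, as it was 2.53-fold higher in DMSO. Ier3 was 2.21-fold lower with Ruvbl2 siRNA in DMSO. For Phlda1 the change of the LPS difference was -1.09, past the size rule, but -0.80 with spike-in scaling.

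Of the phosphatases outside the 9, Dusp7, a cytoplasmic ERK phosphatase, had LPS differences of -0.03 with Ruvbl2 siRNA (0.33 with spike-in scaling) and 0.09 with control siRNA. Dusp8, a JNK and p38 phosphatase near the floor, differed by -0.31 with Ruvbl2 siRNA (0.06 with spike-in scaling) and by 1.05 with control siRNA, against a technical SD of 0.61. The change of its LPS difference, -1.36, passed the size rule, but not after normexp correction and quantile normalization. Dusp9 was over background with Ruvbl2 siRNA and LPS and on no other array. Of 13 atypical dual specificity phosphatases compared, 1 was called higher with LPS and Ruvbl2 siRNA (Dusp15, at least 2.18-fold) and 0 with control siRNA, so few that they say little beside the shares of all genes. Between the siRNAs in LPS, Dusp15 was at least 2.18-fold higher and Dusp18, which was also faint, was 2.06-fold lower. Over the alternatives that kept the 2-fold rule, 0 to 1 atypical genes were called higher there and 0 to 1 lower. With LPS and Ruvbl2 siRNA 0 to 2 were called higher.

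Of the other Sprouty and Spred genes, Spry3 and Spry4 were not well above background on any array. Spred1, which blocks Raf activation, had levels of 3.61 with Ruvbl2 siRNA and LPS and 4.21 with Ruvbl2 siRNA and DMSO, against 3.31 with control siRNA and LPS and 4.25 with control siRNA and DMSO. It was different by -0.60 with Ruvbl2 siRNA and by -0.94 with control siRNA on the log2 scale, LPS being the lower. Spred3 differed by 0.78 with Ruvbl2 siRNA (1.15 with spike-in scaling) and by 1.47 with control siRNA, which is past the size rule with control siRNA. Over the alternatives that kept the 2-fold rule, 0 to 1 genes of this list were called higher with LPS and control siRNA, and 0 to 1 lower. Spred2 differed by -0.15 with Ruvbl2 siRNA (0.22 with spike-in scaling) and by 0.12 with control siRNA.

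Among 10 MAP kinases compared, Mapk12, a p38 kinase, was 2.49-fold higher with LPS and control siRNA (1.62-fold with Ruvbl2 siRNA, or 2.08-fold with spike-in scaling), and Mapk13, another p38 kinase, was at least 2.08-fold higher with Ruvbl2 siRNA (1.20-fold with control siRNA). The Mapk13 probe was faint, with a technical SD of 0.61 on the log2 scale. None of 7 MAP2 kinases, 14 MAP3 kinases and Raf genes or 10 MAP kinase activated kinases compared was called in any of the comparisons, except that Braf was 2.02-fold higher with LPS and Ruvbl2 siRNA with spike-in scaling. Of 12 Ras genes and adaptors, Nras was called (with spike-in scaling Rasa1 too, at 2.11-fold), at 2.02-fold higher with LPS and Ruvbl2 siRNA (1.87-fold with control siRNA). Among 6 decay factors of short-lived mRNAs, Zfp36, which binds AU-rich cytokine mRNAs, was 2.15-fold higher with Ruvbl2 siRNA and 3.03-fold higher with control siRNA, and Zc3h12a, an endonuclease, was 2.82-fold higher with control siRNA (1.64-fold with Ruvbl2 siRNA, or 2.11-fold with spike-in scaling). Between the siRNAs, no MAP kinase, adaptor or decay factor gene was called in LPS or in DMSO. Over the alternatives that kept the 2-fold rule, 0 to 1 MAP kinases were called higher with LPS and control siRNA, and 0 to 2 with Ruvbl2 siRNA. For the Ras genes and adaptors it was 0 to 2 with Ruvbl2 siRNA, and for the decay factors 1 to 2 with each siRNA.

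**Figure D4:**
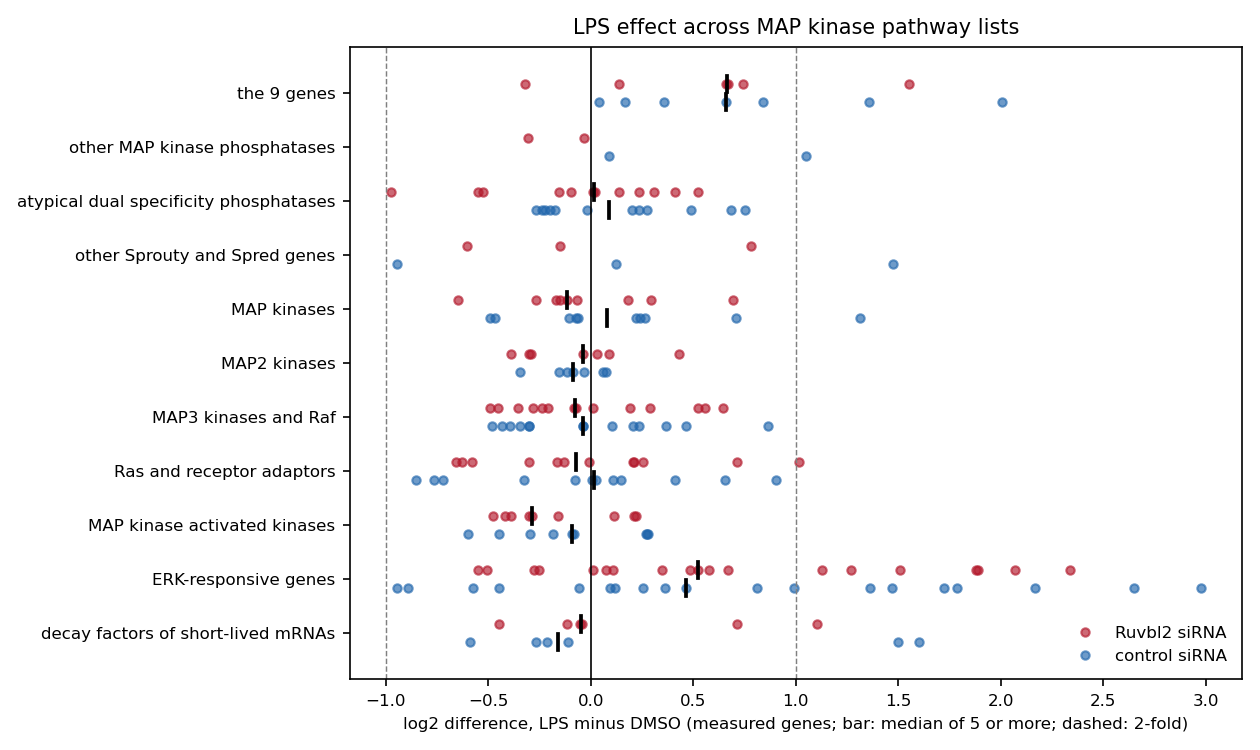
Log2 difference of LPS minus DMSO for the genes of each list measured on both arrays, with Ruvbl2 siRNA (upper row of each pair) and control siRNA (lower row); black bars are medians of lists with 5 or more measured genes. The ERK-responsive genes reach furthest to the right, and the medians of the kinase lists lie between -0.29 and 0.08. With spike-in scaling, which is not plotted, the kinase medians with Ruvbl2 siRNA are between 0.08 and 0.32 (all genes 0.33).

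The genes whose 4 levels, each centred on their mean, lay nearest to those of a member were looked up among 12467 genes for the 3 members whose levels, all measured, spanned at least 1 log2 unit. For Dusp4 these were Mapk12 (Euclidean distance 0.05 log2 units) and Il4ra, the interleukin-4 receptor (0.08). For Dusp6 they were Pim1, a serine/threonine kinase (0.09), and Slc17a8, a glutamate transporter (0.10), and for Dusp16 Ascc3, a helicase (0.05), and Msi2, an RNA-binding protein (0.05). With 4 arrays and so many genes, near matches of this size are a description only.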

How the data were processed

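RNA was labelled with Cy3 and hybridized in 1 colour to whole-genome Agilent mouse arrays, 1 array per group. The deposited intensity values, per the file headers, were made with Agilent Feature Extraction 11.5.1.1 (the submitters' processing notes give 11.0): the processed signal is background-subtracted and detrended within the array with no normalization across arrays. In the deposited value table the entries equalled it at all 62976 spots of each array, within a relative tolerance of 1e-06. The deposited files also hold 0 or 1 marks for spots well above background.

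Control spots (3671) and spots marked as outliers were left out, log2 values of repeated spots were averaged, and the array's 75th percentile was subtracted. RefSeq accessions named 32994 of 56605 probes, giving 22907 genes, and the probe brightest on average stood for a gene with several. The calling code was run on simulated data, with noise far under that of dim spots and large shifts in bright genes only. That run checked the code and does not show how reliable a call is. Alternatives were quantile normalization, normexp correction (offset 50, on median spot and background signals since no mean signal was given) with quantile normalization, centring on probes well above background, cyclic loess, spike-in scaling, the mean of a gene's probes, the deposited table, a level minimum of -2 and a 1.5-fold rule. Python 3.11.15, R 4.3.3 and limma 3.58.1 were used. Precision is limited by having 1 array per group.

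The members and lists were chosen with earlier results of these data known. From the lists, up to 3 genes per direction past the size rule were to be named, as were Ruvbl2, Tnf and Il10; Spred1, Spred2, Dusp7 and further genes named as present in a list were chosen after their values were seen, as were the promoters printed.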

Additional observations from a re-analysis of the deposited data

Results flagged for a closer look

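Dusp1 was singled out because its LPS difference had opposite signs with the 2 siRNAs, at -0.32 with Ruvbl2 siRNA and 0.36 with control siRNA, each from 1 pair of arrays. The difference between them was not tested, since there was 1 array per group. With spike-in scaling the value with Ruvbl2 siRNA was 0.04.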

How the results depend on the processing

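No paired analysis was possible because each group had 1 array, which also left no replicate to leave out and no slide to use as a block. With 9 alternatives for each count of members called, LPS against DMSO with Ruvbl2 siRNA gave 4 in place of 1 with spike-in scaling and with the 1.5-fold rule (Dusp2, Dusp4, Dusp6 and Dusp16 in both). With the 1.5-fold rule these 4 of 6 members stood beside 16.9% of all genes called in either direction. For LPS with control siRNA that rule called 4 of 8 members in place of 2, beside 19.9% of all genes. For the siRNAs in LPS it called 1 of 8 in place of 0 (Dusp10, a limit against the floor), beside 9.05%. For the change of the LPS difference it called 2 of 6 in place of 0 (Dusp4 and Dusp1), beside 8.13%. A looser rule calls more by construction, and the cause of the shift with spike-in scaling was not tested. The other counts of members kept their value. Some recomputed differences of measured members could not change, because the deposited table equals the processed signal. The mean of a gene's probes can move only Spry2. Of all 217 recomputed differences, 207 kept their sign. Of the 10 that turned, 6 came with spike-in scaling, and the other 4 were Spry2 with the mean of its probes (-0.02 for LPS with control siRNA and -0.27 for the siRNAs in DMSO) and the change of the Dusp2 LPS difference, which lay at 0.00 (-0.02 with normexp correction and with centring on probes well above background). Over all genes, normexp correction with quantile normalization called fewer. It gave 298 higher and 116 lower for LPS with Ruvbl2 siRNA in place of 560 and 277, and 451 and 150 with control siRNA in place of 775 and 298. For the siRNAs it gave 24 and 70 in LPS in place of 143 and 193, 13 and 24 in DMSO in place of 134 and 73, and for the change of the LPS difference 14 and 50 in place of 65 and 144. Spike-in scaling gave 1103 and 118 for LPS with Ruvbl2 siRNA, 67 and 212 for the siRNAs in DMSO and 227 and 60 for the change of the LPS difference. Dusp5, Dusp10 and Spry1 were limited by signal over background.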
